A study of Saccharomyces cerevisiae with 6 samples.

Results

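The genes described here are the copper-binding metallothioneins of budding yeast and the genes of copper sensing and uptake that stand beside them. They were taken by locus tag: CUP1-1 (YHR053C), CUP1-2 (YHR055C), CRS5 (YOR031W), CUP2 (YGL166W), CTR1 (YPR124W) and FRE1 (YLR214W). Of these 6 genes, CUP2, CTR1 and FRE1 matched 3 of the 5793 rows of the expression table and have a value. The metallothionein genes CUP1-1, CUP1-2 and CRS5 matched no row by locus tag or symbol, so their expression was not analysed here and only their genomic sequence is described.

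*Saccharomyces cerevisiae* strain BJ5464, which the labels give as a URA3 deletion auxotroph, was grown in YPD at 28 °C and the culture was divided in equal volumes. One portion spent 20 min at 37 °C (heat shock, 3 libraries) and the other was kept under optimal growth (3 libraries). Both groups carry the same URA3 deletion, and the 3 aliquots of each group came from its part of one culture, so they are not independent cultures. Polyadenylated RNA was sequenced. The values used here are a single log2 mean CPM per gene over all 6 libraries. The table holds no value per library, so no standard deviation or read depth is given. The authors' own comparison of the groups was not used, so no level is given for heat shock or for optimal growth alone and no test is given. A gene whose transcript differs between the groups has a value between its levels in them.

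Copper is both a cofactor and a poison, and yeast keeps it within limits by a pair of opposed switches. When copper is plentiful, the regulator Cup2 (also known as Ace1) binds copper and activates the metallothionein genes, whose small cysteine-rich proteins hold the metal in the cytosol. When copper is scarce, the regulator Mac1 activates the reductase Fre1, which reduces copper at the cell surface, and the transporter Ctr1, which carries the reduced metal into the cell.

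The promoters of the 6 genes were searched for the letters that these regulators are known to bind. Since the regulators were already known to act on these genes, matches here and their rarity elsewhere are no independent evidence. In the 500 bases before each coding start, on both strands, the Mac1 letters TTTGCTCA occurred only in CTR1 and FRE1, 2 times each, and the Cup2 letters TNNNGCTG occurred in the metallothionein genes and in CUP2 itself. The stretches below are from the RefSeq R64 sequence, read on the strand of the gene, with the match in capitals. They show every Mac1 match, the CUP2 match and, of the 2 in CRS5, the one nearer the coding start. Of the 5 Cup2 matches of CUP1-1 they show the 2 that read TTTTGCTG on the strand of the gene, which CUP1-2 holds too. Another CUP1-1 match has these letters on the reverse strand and is not shown.

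CTR1 first Mac1 match (chrXVI:785863-785892): atcatgggataTTTGCTCAagacgacggta
CTR1 second Mac1 match, reverse strand (chrXVI:785885-785914): cgacggtaaaaTGAGCAAAaatggcacgat
FRE1 first Mac1 match (chrXII:568270-568299): tcgccgatattTTTGCTCAccttttttttt
FRE1 second Mac1 match (chrXII:568287-568316): cacctttttttTTTGCTCAtcgaaaattgt
CUP1-1 Cup2 match (chrVIII:212975-213004): gaaaaagacatTTTTGCTGtcagtcactgt
CUP1-1 Cup2 match (chrVIII:212946-212975): tcaagagattcTTTTGCTGgcatttcttct
CRS5 Cup2 match (chrXV:389027-389056): aaatgcgtcttTATTGCTGtgtggaagtga
CUP2 Cup2 match (chrVII:191025-191054): ttcggtaagtaTTAAGCTGtggacgaaata

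In CTR1 the Mac1 matches lay 334 and 312 bases before the coding start and faced opposite ways. In FRE1 they lay 286 and 269 bases before it and faced the same way. Only 154 of 6020 promoters of this length (2.56%) held the motif at all, and 3 (0.0498%) held it at least 2 times. The third of these was CRR1, the gene that diverges from FRE1 and shares its upstream region, 644 bases of which separate the coding sequences. The other form of the Mac1 site, TTTGCGCA, was in 0.880% of promoters and in none of the 6 genes. Among the 18 other copper genes listed for comparison, only CCS1, which encodes the copper chaperone of superoxide dismutase, held the TTTGCTCA form, 1 time. For the rest, this says only that these exact letters are not in the window, and TTTGCGCA matches are not reported for the 18.

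The Cup2 letters are short, and 53.1% of promoters held them. CUP1-1 and CUP1-2 each held 5 matches between 316 and 184 bases before the coding start, a number that 0.548% of promoters reached. The matched stretches of the copies are the same sequence, so they are a single observation. For the shorter core GCTG, 14.0% of promoters reached that number. CRS5 held 2 matches, and 19.3% of promoters held at least as many. CUP2 held 1, so for CRS5 and CUP2 the counts were not unusual among promoters. The 0 matches of CTR1 and FRE1 say only that these letters are not in this window. A match describes the sequence and does not show that a factor was bound.

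Letters linked to general stress and to heat were searched as well, and nothing is read from so few matches. The stress element AGGGG, bound by Msn2 and Msn4, was in 34.0% of promoters and occurred 2 times in CRS5, 221 and 63 bases before the coding start, a number that 8.14% of promoters reached. The windows of the other 5 genes did not hold it. The heat shock element of 3 alternating GAA and TTC units, spelled GAANNTTCNNGAA, was in 1.48% of promoters and in the windows of none of the 6 genes. Spaced or shorter variants of that element were not searched.

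**Figure D1:**
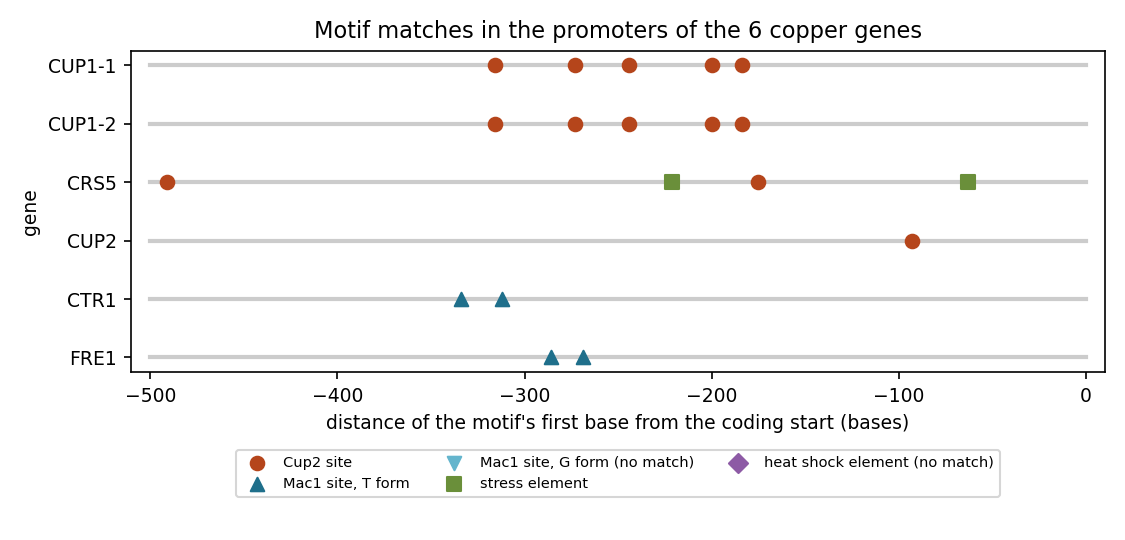
Motif matches in the 500 bases before the coding start of each gene. The x axis gives the distance of a motif's first base from the coding start in bases, each row is a gene, and each mark is a match on either strand. The Mac1 letters mark CTR1 and FRE1 (2 each) and the Cup2 letters mark CUP1-1, CUP1-2, CRS5 and CUP2.

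Among the genes with a value, the transporter was the most abundant, the reductase came next and the regulator was lowest. Levels of different genes were set side by side per kilobase of coding length, as mean CPM per kb over all libraries pooled. On that scale CTR1 stood at 444.7, FRE1 at 158.8 and CUP2 at 46.8, with 58.3 as the median of the 5791 features that matched the annotation. CTR1 was thus 2.80 times FRE1 and 9.51 times CUP2, and FRE1 was 3.39 times CUP2. Whether neighbours in this order differ beyond the spread between libraries cannot be said, since no spread is given.

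CTR1, the high-affinity copper transporter of the plasma membrane, lies on chromosome XVI from 786208 to 787428 on the plus strand, with an uninterrupted coding sequence of 1221 bases. Its deposited log2 mean CPM was 9.08, a mean CPM of 543. Per length it ranked 422nd from the top, above 92.7% of matched features. The next genes on either side were lower: AXL1 stood at 29.6 and YLH47 at 125 mean CPM per kb.

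FRE1, a ferric and cupric reductase of the plasma membrane, lies on chromosome XII from 568567 to 570627 on the plus strand, with an uninterrupted coding sequence of 2061 bases. Its deposited log2 mean CPM was 8.35, a mean CPM of 327. Per length it stood above 79.6% of matched features. CRR1, which shares its upstream region and the Mac1 matches printed above, stood at 30.3 mean CPM per kb, and the gene on the other side, CDC123, at 36.3.

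CUP2, the copper-sensing activator of the metallothionein genes, lies on chromosome VII from 191129 to 191806 on the plus strand, with an uninterrupted coding sequence of 678 bases. Its deposited log2 mean CPM was 4.99, a mean CPM of 31.7, and per length it stood above 41.6% of matched features. Ranked without length, it stood above only 20.5%. Of the next genes on either side, PMR1 was higher than CUP2, at 56.2 mean CPM per kb, and YRB30 lower, at 38.0. Its counterpart in scarcity, MAC1, stood at 32.4 mean CPM per kb, so that CUP2 was 1.44 times MAC1 per length. Without length the order turned, with a mean CPM of 31.7 for CUP2 and 40.6 for MAC1. Per length, both regulators were below the median of all matched features.

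CTR1 and FRE1 were also each the highest of the few genes listed under the same role. CTR1 was set beside the other transporters listed under copper uptake. It was 5.06 times CTR2, a copper transporter of the vacuole membrane rather than the cell surface. It was 8.48 times FET4, a low-affinity metal transporter, and 21.6 times CTR3, another high-affinity copper transporter. The pooled levels of CTR2, FET4 and CTR3 were 87.8, 52.4 and 20.6 mean CPM per kb. Beside FRE1, only FRE2 and FRE7 were listed as reductase genes. FRE1 was 2.13 times FRE7, which stood at 74.5, and 24.8 times FRE2, which stood at 6.40 mean CPM per kb.

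Genes that carry copper onward inside the cell were all below CTR1. The 3 copper chaperones ATX1, CCS1 and COX17, which deliver the metal to the secretory pathway, to superoxide dismutase and to mitochondria, ran from 191 to 236 mean CPM per kb, above FRE1. That place rests on their short coding sequences, since without length their mean CPM was 42.3 for ATX1, 149 for CCS1 and 49.6 for COX17, against 327 for FRE1. SOD1, the copper-zinc superoxide dismutase that uses the metal, was the highest of the list at 2010 mean CPM per kb, 4.52 times CTR1. The gap was narrower without length, with a mean CPM of 935 for SOD1 and 543 for CTR1. Per length FET3, the multicopper oxidase of iron uptake, stood at 134 mean CPM per kb. The copper pump CCC2 stood at 27.1 and PCA1, a metal-transporting ATPase, at 15.9. The 5 genes of mitochondrial copper delivery (SCO1, COX11, COX19, COX23 and PIC2) ran from 48.0 to 119 mean CPM per kb. Per length, 10 of the 18 listed genes were above the median of all matched features, as were, by definition, 2895 of all 5791. The median was 67.3 for the list and 58.3 for all. Of the 3 genes CTR1, FRE1 and CUP2, 2 were above it. The count for the list rests on the scaling. Without length CTR2, ATX1, COX17, COX11 and COX19 fell below the median, and FET4 and CCC2 rose above it.

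**Figure D2:**
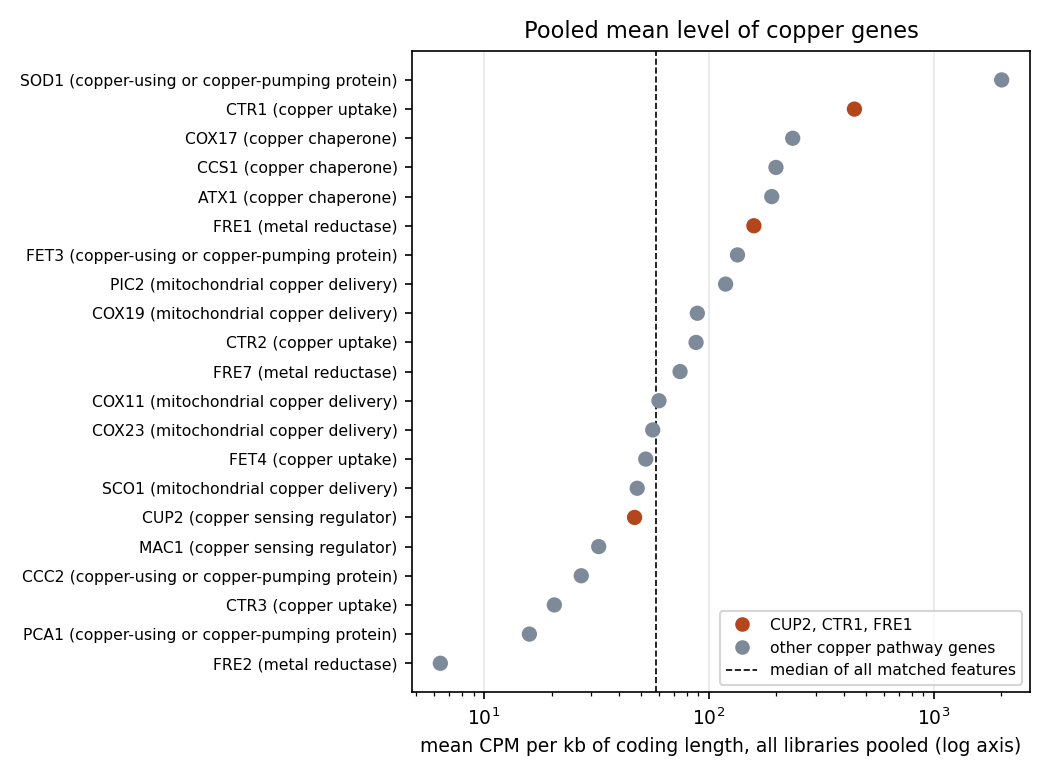
Pooled mean level of the copper genes with a value. The x axis gives the deposited mean CPM over all 6 libraries per kb of coding length on a log axis, each row is a gene with its role, and the dashed line is the median of all matched features (58.3). CTR1 (444.7) lies below only SOD1 (2010), while CUP2 (46.8) lies under the dashed line; no error bar is drawn because no value per library is given.

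The metallothionein genes without a value are unusual in the genome. CUP1-1 lies on chromosome VIII from 212535 to 212720 and CUP1-2 from 214533 to 214718, both on the minus strand with 186 coding bases. The 2 coding sequences differed at 0 positions. The copies sit 1998 bases apart within a tandem repeat, and the identical run around them extended over 1988 bases, so that 100% of the 50-base words of either gene occurred elsewhere in the genome. Reads from the copies cannot be told apart by sequence. The RefSeq notes describe this locus as amplified to a varying degree among strains, and its copy number in BJ5464 was not analysed here.

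The repeat also reaches the genes around CUP1. YHR054C, a partial duplicate of RSC30 that lies between the copies, had 100% of its 50-base words repeated elsewhere and has no value here. RSC30 encodes a subunit of the RSC chromatin remodeller and lies 464 bases upstream of CUP1-2. It had 39.2% of its words repeated and stood at 23.8 mean CPM per kb, a value that reads from the repeat could affect. CIC1, on the other side of the array, stood at 203 mean CPM per kb. Each CUP1 copy is overlapped along all 186 bases by an annotated noncoding RNA on the opposite strand (RUF5-1 and RUF5-2), neither of which has a value here. The open reading frames YHR052C-B and YHR054C-B overlap them on the same strand by 158 bases each and have no value here.

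CRS5, the other metallothionein gene, lies on chromosome XV from 389213 to 389422 on the plus strand. It is 210 bases long, and 0% of its 50-base words occurred elsewhere, so it differs from CUP1 in having no near-identical copy. RefSeq lists it as a pseudogene in the R64 reference. Its neighbours DFG16 and HMS1 had values of 31.8 and 17.8 mean CPM per kb. For CUP2, CTR1 and FRE1 the share of repeated words was 0% as well, and no annotated gene overlapped them, so their values rest on sequence that no other gene shares at this word length.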

How the data were processed

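RNA-Seq libraries were made from 3 heat shock and 3 optimal growth aliquots. Per the paper's methods, kalign was used by the authors to align reads to the repeat-masked R64 (sacCer3) genome and ran the Trinity edgeR pipeline. The read counter, its strand setting, its treatment of multiply matching reads, any low-count filter and the prior count are not given in the sources used here. These choices bear on repeated and overlapping genes. The authors deposited a log2 mean CPM per gene over all libraries, and it was used as their mean. The same table holds log2 fold changes, p-values and adjusted p-values of the authors' own comparison of heat shock and optimal growth; these were not used. Depth per library is unknown.

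Of 5793 features, 5715 matched RefSeq R64 by locus tag and 76 by symbol, and 2 matched neither. The mean CPM was taken out of the log2 scale and divided by the coding length in kilobases, or by the gene length for noncoding RNAs. Percentiles are the share of matched features with a lower value. Words of 50 bases were counted on both strands of the genome, and promoters were the 500 bases before each coding start (6020 genes). The functions were tested on simulated data. Named were the 6 genes of the rule, the listed copper genes, the genes next to or overlapping any of the 6, and genes of the CUP1 repeat. The genes and lists were chosen with earlier results of these data known, and the motifs and their window after the table was seen. Alternatives were other lengths, backgrounds, word lengths and motif letters. Python 3.11.15, numpy 2.4.6, pandas 2.3.3 and matplotlib 3.10.9 were used.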

Additional observations from a re-analysis of the deposited data

How the results depend on the processing

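A value counted as kept when it was the same after rounding to 3 significant digits, since no spread between libraries was available to judge it by. Under 18 of 33 settings the value was kept. The whole gene span as length changed no level, and could not, since the coding sequences of CUP2, CTR1 and FRE1 are uninterrupted. Words of 36 or 100 bases changed no share of repeated words in the 6 genes, where every share was 0% or 100%. The Cup2 core GCTG gave CUP1-1, CUP1-2 and CTR1 the same number of matches. Subtracting the CPM of the lowest feature gave 444.1 for CTR1, 158.5 for FRE1 and 45.8 mean CPM per kb for CUP2. Percentiles among protein-coding genes were 92.6 for CTR1, 79.3 for FRE1 and 41.0 for CUP2, and among features whose log2 mean CPM was 1 or more they were 92.6, 79.2 and 40.3. Without scaling by length they were 94.4, 89.6 and 20.5. The order of the 3 genes was the same under each of these settings. Another background could not change it, since the same levels were ranked, and the subtraction took little from each level. Leaving out the length was the setting that could have changed it. With GCTG in place of TNNNGCTG, the matches were 4 in CRS5, 3 in CUP2 and 2 in FRE1, and 89.7% of promoters held that core. The 5 matches of CUP1-1 and CUP1-2 were then less rare, as 14.0% of promoters reached that number, against 0.548% for TNNNGCTG.

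No paired analysis was possible because every gene has a single value over all libraries. For the same reason leaving out each replicate was planned and not run, and whether 1 library decides a level is unknown. Summing the CUP1 copies was not run, as neither has a value here.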
